A study of Mus musculus with 33 samples.

Results

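The 8 genes described here, S100a8, S100a9, Mpo, Elane, Prtn3, Ngp, Camp and Ltf, encode calprotectin and proteins of neutrophil granules. They were taken by name, with earlier results of these data known. Every array probe annotated to them was used, which gave 12 of the 45281 probes. All 8 genes had a probe that passed the filter on dim signals, among 14018 genes tested. Mpo had 4 probes and Ltf had 2, and each of the other 6 genes had 1. RNA of 33 mouse liver samples had been measured on bead arrays (Illumina's MouseWG-6 v2.0 design), 1 array to a sample. Livers carrying floxed alleles without the knockout label comprised 3 Sav1 flox samples and 3 Mst1/2 flox samples, and 2 further livers were labelled wild type. From Sav1 -/- animals there were 7 samples of the liver around the tumours and 11 hepatocellular carcinomas. From Mst1/2 -/- animals there were 3 samples of surrounding liver and 4 tumours. The labels used here give no strain, age, sex, Cre driver or animal identity, so each p-value reflects variation among these samples only, some of which may come from the same animal. Sav1 encodes a scaffold of the Hippo kinase cascade, and Mst1 and Mst2 are the kinases it binds.

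S100A8 and S100A9 form calprotectin, a calcium- and zinc-binding complex that fills the cytosol of neutrophils, is also made by monocytes, and signals to other cells through receptors such as TLR4. Myeloperoxidase (Mpo), neutrophil elastase (Elane) and proteinase 3 (Prtn3) are stored in primary granules and are transcribed early in granulocyte development, at the promyelocyte stage. Neutrophilic granule protein (Ngp), cathelicidin (Camp) and lactotransferrin (Ltf) belong to secondary granules and are transcribed later, in myelocytes. Liver parenchyma is not a usual source of granule transcripts.

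The genes lie in 4 places in the GRCm38.p6 assembly. S100a8 spans chr3:90669071-90670034 on the plus strand, and S100a9 spans chr3:90692630-90695721 on the minus strand, with 22595 bases between them. Prtn3 at chr10:79879667-79883174 and Elane at chr10:79886312-79888216 are separated by 3137 bases. Mpo spans chr11:87793784-87804412. Camp (chr9:109847377-109849456), Ngp (chr9:110419808-110423012) and Ltf (chr9:111019292-111042766) share a chromosome.

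The 250 bases upstream of the annotated starts of both neighbouring pairs are shown because, as described further on, the levels of the calprotectin genes were correlated across Sav1 tumours and no such correlation was found between the adjacent Prtn3 and Elane. Elane was above background in only 5 of the 11 Sav1 tumours, so a correlation with Prtn3 could hardly be measured. The sequences are RefSeq's, GRCm38.p6, read 5′ to 3′ on the strand of each gene. Capitals mark matches on either strand to GAGGAA (the core bound by PU.1 and other ETS factors), TTGCNNAA (a core bound by C/EBP factors) or TATAAA (the TATA box).
S100a8, chr3:90668821-90669070, plus strand: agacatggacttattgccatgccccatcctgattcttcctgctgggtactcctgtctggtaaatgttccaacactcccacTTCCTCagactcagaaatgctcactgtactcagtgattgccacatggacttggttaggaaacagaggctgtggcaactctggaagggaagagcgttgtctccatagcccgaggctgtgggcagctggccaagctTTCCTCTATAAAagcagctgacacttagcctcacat
S100a9, chr3:90695722-90695971, minus strand: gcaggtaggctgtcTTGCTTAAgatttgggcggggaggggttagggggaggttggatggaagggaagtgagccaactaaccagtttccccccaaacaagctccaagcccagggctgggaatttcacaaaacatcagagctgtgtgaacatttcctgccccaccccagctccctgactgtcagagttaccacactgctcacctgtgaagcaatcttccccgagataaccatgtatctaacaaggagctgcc
Prtn3, chr10:79879417-79879666, plus strand: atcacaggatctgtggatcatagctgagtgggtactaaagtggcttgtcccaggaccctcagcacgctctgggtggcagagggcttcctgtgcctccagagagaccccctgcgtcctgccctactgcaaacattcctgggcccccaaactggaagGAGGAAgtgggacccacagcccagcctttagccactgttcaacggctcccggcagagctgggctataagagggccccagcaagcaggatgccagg
Elane, chr10:79886062-79886311, plus strand: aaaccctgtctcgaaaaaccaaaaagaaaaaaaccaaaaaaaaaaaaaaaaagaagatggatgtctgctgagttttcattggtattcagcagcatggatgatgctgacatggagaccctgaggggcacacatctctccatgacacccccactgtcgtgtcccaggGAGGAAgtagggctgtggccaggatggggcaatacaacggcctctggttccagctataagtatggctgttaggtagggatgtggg
GAGGAA or its reverse complement was found upstream of 5 of the 8 genes (S100a8, Mpo, Elane, Prtn3 and Ltf), against 23.3% of the 32851 annotated mouse promoters of the same length. TTGCNNAA was found upstream of 3 of 8 (S100a9, Ngp and Ltf), against 9.56%. TATAAA was found upstream of S100a8 alone, beginning 30 bases before the start and directly after a GAGGAA match on the opposite strand, against 12.4% of promoters. A match describes these letters only, and a window without one says nothing about binding.

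Values are log2 normalized signals. A probe was called above background on an array when its signal passed a threshold set from that array's dimmest probes. The threshold differed between arrays, so the same normalized signal could be above background on some arrays and not on others. Signals of different probes are not comparable with each other, so each gene was compared only between groups. In whole tissue, fewer cells of a type and less RNA per cell cannot be told apart. Median array signal ranged from 78.5 to 112 across the 33 arrays, and 35.1% to 52.3% of probes were above background on each. By their signals over the 12413 probes above background on no array, the arrays were divided into 3 sets, a number that was chosen and not estimated. The labels name no batch. The mean correlation of arrays within a set was 0.151 in A, 0.014 in B and 0.021 in C. With arrays of the other sets it was -0.097, -0.079 and -0.040. Arrays of sets B and C were thus almost uncorrelated within their set. Set A held 9 arrays (the 3 Sav1 flox livers, Sav1 surrounding livers 1 to 3 and Sav1 tumours 1 to 3). Set C held 6 (Sav1 surrounding livers 4 to 7 and Sav1 tumours 4 and 5), and set B held the other 18, with all Mst1/2 and wild-type samples. The 3 Mst1/2 flox livers had a high signal for the female-specific transcript Xist (10.91 ± 0.33, SD, n = 3), against means of 6.12 to 6.30 in the other 6 groups. Sex and knockout therefore cannot be told apart where Mst1/2 flox livers were the control. In the Sav1 line, the Y-linked genes Eif2s3y (-1.84, limma adjusted p = 0.021) and Kdm5d (-1.05, 0.018) were lower in tumours than in flox liver. In that comparison 16% of all genes tested were called lower. The cause was not tested.

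**Figure D1:**
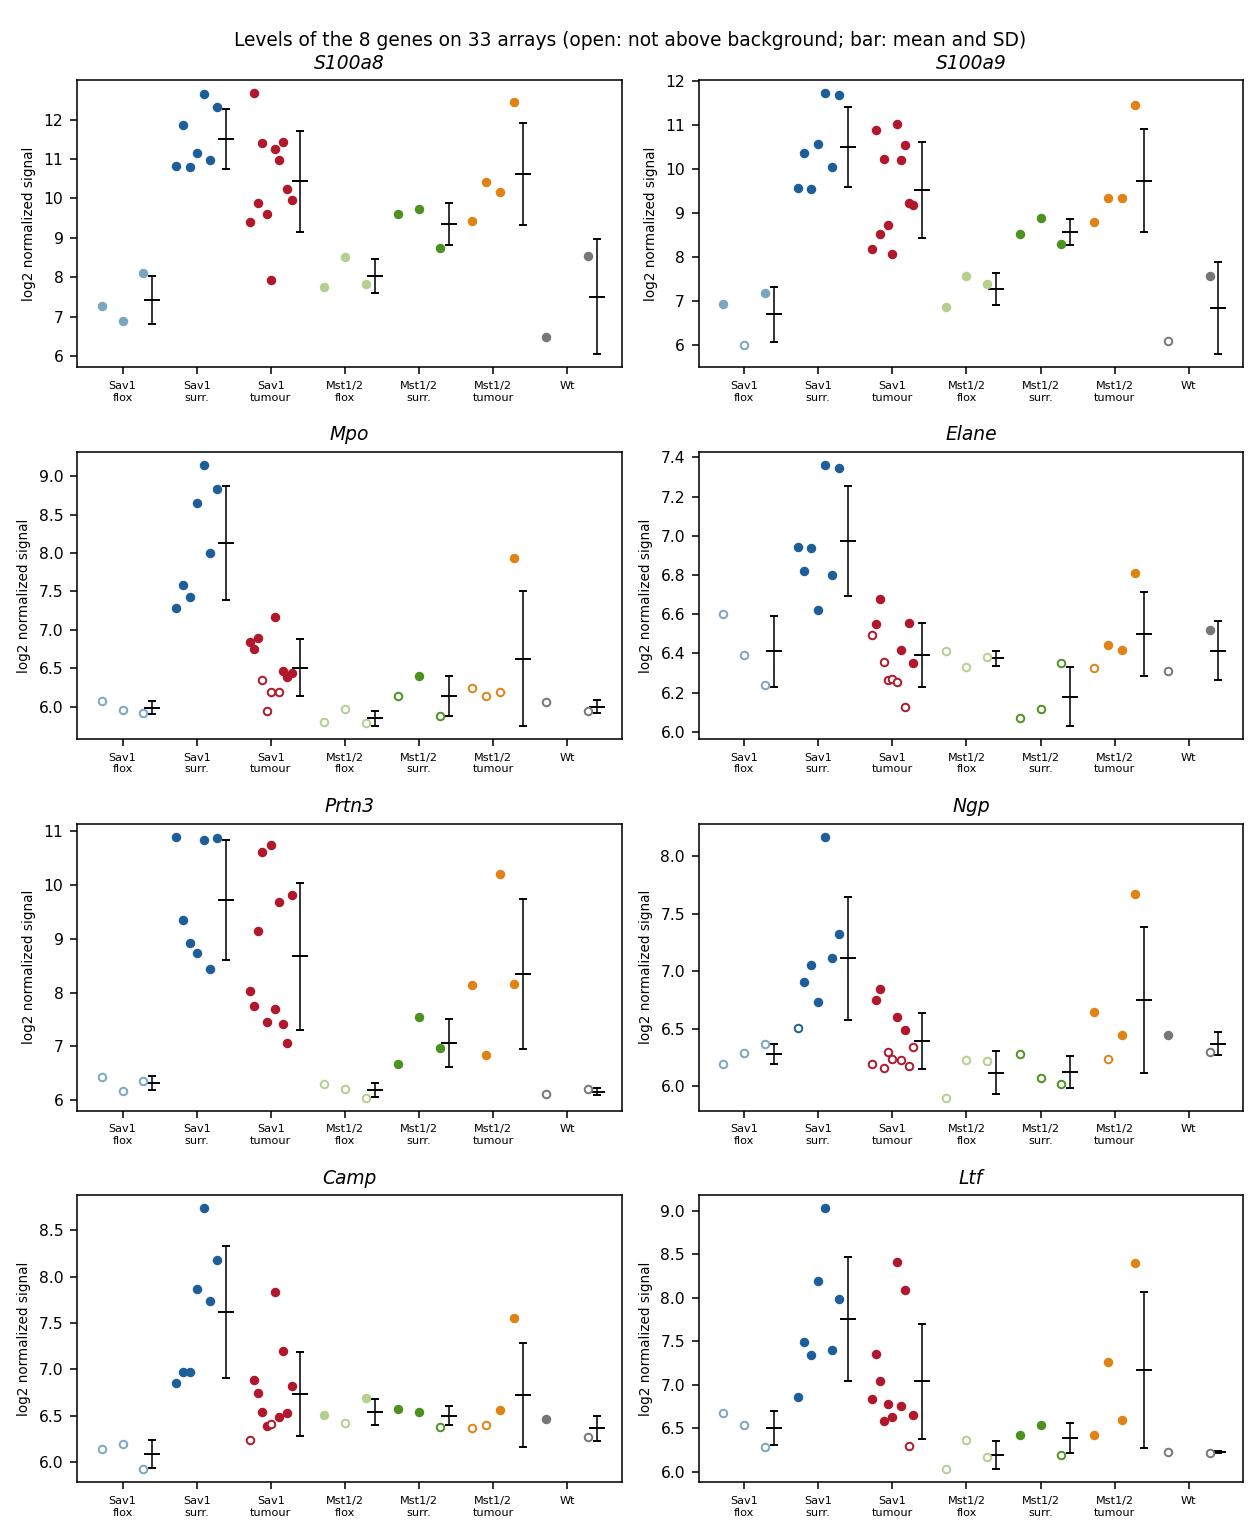
Log2 normalized signal (vertical axis) of each of the 8 genes on each array, by group, with 1 point per array; open points were not above background, and bars give the mean and SD. S100a8 was above background on every array, at 6.90 to 8.11 in Sav1 flox liver and 10.79 to 12.65 in Sav1 surrounding liver, whereas Mpo was not above background in any of the 8 normal livers.

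In normal livers S100a8 was above background on every array and S100a9 on most, whereas the granule genes mostly were not. S100a8 read 7.26, 6.90 and 8.11 in the 3 Sav1 flox livers, 7.75, 8.52 and 7.83 in the 3 Mst1/2 flox livers, and 6.47 and 8.55 in the 2 wild-type livers. S100a9 read 6.93, 5.99 and 7.18 in Sav1 flox liver, 6.86, 7.58 and 7.38 in Mst1/2 flox liver, and 6.10 and 7.58 in wild-type liver. It was above background in 2 of 3, 3 of 3 and 1 of 2 of these livers. The wild-type pair spanned the range of both floxed groups for S100a8, and for S100a9 1 Sav1 flox value (5.99) lay below it. Mpo, Prtn3 and Ltf were not above background on any of the 8 normal liver arrays. Camp was above background in 2 Mst1/2 flox livers (6.51 and 6.69) and 1 wild-type liver (6.46). Elane and Ngp were above background only in 1 wild-type liver each, at 6.52 and 6.44. Across the 3 normal liver groups, limma's moderated F test called 0 of the 8 genes, with 0 at an unadjusted p under 0.05 and a lowest adjusted p of 0.8 (Camp), whereas it called 5.29% of all genes tested.

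The liver surrounding Sav1 -/- tumours was compared with Sav1 flox liver, which asks how tissue that is not tumour differs from liver without the knockout. All 8 genes were higher in the surrounding liver at an adjusted p under 0.05 (limma, Benjamini-Hochberg over 14018 genes), where 5.08% of all genes tested were called higher. Because the 8 genes were chosen with earlier results of these data known, this count is a description and not independent support. The median difference over the 8 genes was 1.84 on the log2 scale, against 0.02 over all genes. The largest differences were in calprotectin and proteinase 3, and the smallest was in elastase. Of the 8, only S100a8 and S100a9 were above background in Sav1 flox liver, so the other 6 entered the test through other groups. Detection was not equal: 37.4%, 39.0% and 35.1% of probes were above background in Sav1 flox liver, against 40.3% to 52.3% in Sav1 surrounding liver. Ltf at 6.68 and Elane at 6.60 were not above background in Sav1 flox liver. Lower values were above background elsewhere, Ltf at 6.43 in a Mst1/2 tumour and Elane at 6.52 in a wild-type liver. Counts of arrays above background therefore partly reflect the array thresholds.

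S100a8 had a mean of 7.42 ± 0.62 (SD, n = 3) in Sav1 flox liver. In Sav1 surrounding liver it read 10.83, 11.86, 10.79, 11.16, 12.65, 10.96 and 12.32, a mean of 11.51 ± 0.76 (SD, n = 7). Every surrounding liver was above every flox liver, and the difference was 4.09 ± 0.69 (SE) on the log2 scale, or 17.0-fold, with a limma adjusted p of 0.00056. Its partner S100a9 went from 6.70 ± 0.63 (SD, n = 3) to 9.58, 10.38, 9.56, 10.58, 11.73, 10.05 and 11.69. The surrounding-liver mean was 10.51 ± 0.90 (SD, n = 7), again with no overlap, and S100a9 was 14.0-fold higher (3.81 ± 0.62, SE; limma adjusted p = 0.00041). S100a9 was above background in 2 of the 3 flox livers, so here and below its flox mean includes a signal not above background.

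Among the primary granule genes, Mpo read 6.08, 5.96 and 5.92 in Sav1 flox liver, none above background. It read 7.28, 7.59, 7.42, 8.66, 9.15, 8.00 and 8.83 in surrounding liver, where it was above background on all 7 arrays. The difference was 2.15 ± 0.35 (SE; limma adjusted p = 0.00037). Because Mpo had only an upper bound in flox liver, its fold is given as a minimum, against the lowest signals called above background on those arrays: at least 2.65-fold higher. Here and below, such a minimum compares group means only and leaves out variation among samples. The true difference may be smaller. Prtn3 read 6.43, 6.17 and 6.35 in flox liver and 10.90, 9.34, 8.91, 8.74, 10.83, 8.43 and 10.88 in surrounding liver. That was at least 7.96-fold higher (difference 3.40 ± 0.73, SE; limma adjusted p = 0.0046), and 3 surrounding livers (1, 5 and 7) stood above the other 4. Elane moved over a narrow range, from 6.24 to 6.60 in flox liver to 6.62 to 7.36 in surrounding liver. It was above background on all 7 surrounding arrays and at least 1.19-fold higher (0.56 ± 0.14, SE; limma adjusted p = 0.011).

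Among the secondary granule genes, Camp read 6.14, 6.20 and 5.92 in flox liver and 6.86, 6.98, 6.97, 7.86, 8.74, 7.74 and 8.18 in surrounding liver. It was at least 1.86-fold higher (1.53 ± 0.33, SE; limma adjusted p = 0.0041). Ltf, an iron-binding protein, ranged from 6.29 to 6.68 in flox liver and from 6.86 to 9.03 (median 7.49) in surrounding liver, at least 2.04-fold higher (1.25 ± 0.41, SE; limma adjusted p = 0.048). Ngp, a cystatin-related granule protein, ranged from 6.19 to 6.37 and from 6.51 to 8.17 (median 7.05), at least 1.31-fold higher (0.83 ± 0.25, SE; limma adjusted p = 0.034). It was above background on 6 of the 7 surrounding arrays. Ltf and Ngp had the highest adjusted p of the 8, and Ltf, Ngp and Elane depended on single samples. Without Sav1 flox replicate 1, 6 genes remained called (Ngp adjusted p = 0.091, Ltf 0.077). Without replicate 2, 5 remained (Elane 0.072, Ngp 0.13, Ltf 0.16), and without replicate 3 the same 5 (Elane 0.077, Ngp 0.077, Ltf 0.15). S100a8, S100a9, Mpo, Prtn3 and Camp were called in each of these fits.

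The size of the difference moved with the array sets. Mpo was 7.28 to 7.59 in surrounding livers 1 to 3 (set A) and 8.00 to 9.15 in surrounding livers 4 to 7 (set C). Camp was 6.86 to 6.98 in set A and 7.74 to 8.74 in set C. All 3 flox livers were in set A, so only surrounding livers 1 to 3 could be compared with them within a set. In that comparison of 3 with 3, Mpo alone was called, with a difference of 1.45 (limma adjusted p = 0.011). The other differences were 3.74 for S100a8 (adjusted p = 0.13), 3.14 for S100a9 (0.14), 3.40 for Prtn3 (0.059), 0.85 for Camp (0.15), 0.73 for Ltf (0.23), 0.54 for Ngp (0.3) and 0.49 for Elane (0.22). All 8 were above 0 with an unadjusted p under 0.05, and Prtn3 differed as much as over all sets. With set as a block in the fit over all samples, 6 genes were called, and Ngp (adjusted p = 0.14) and Ltf (0.2) were not.

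**Figure D2:**
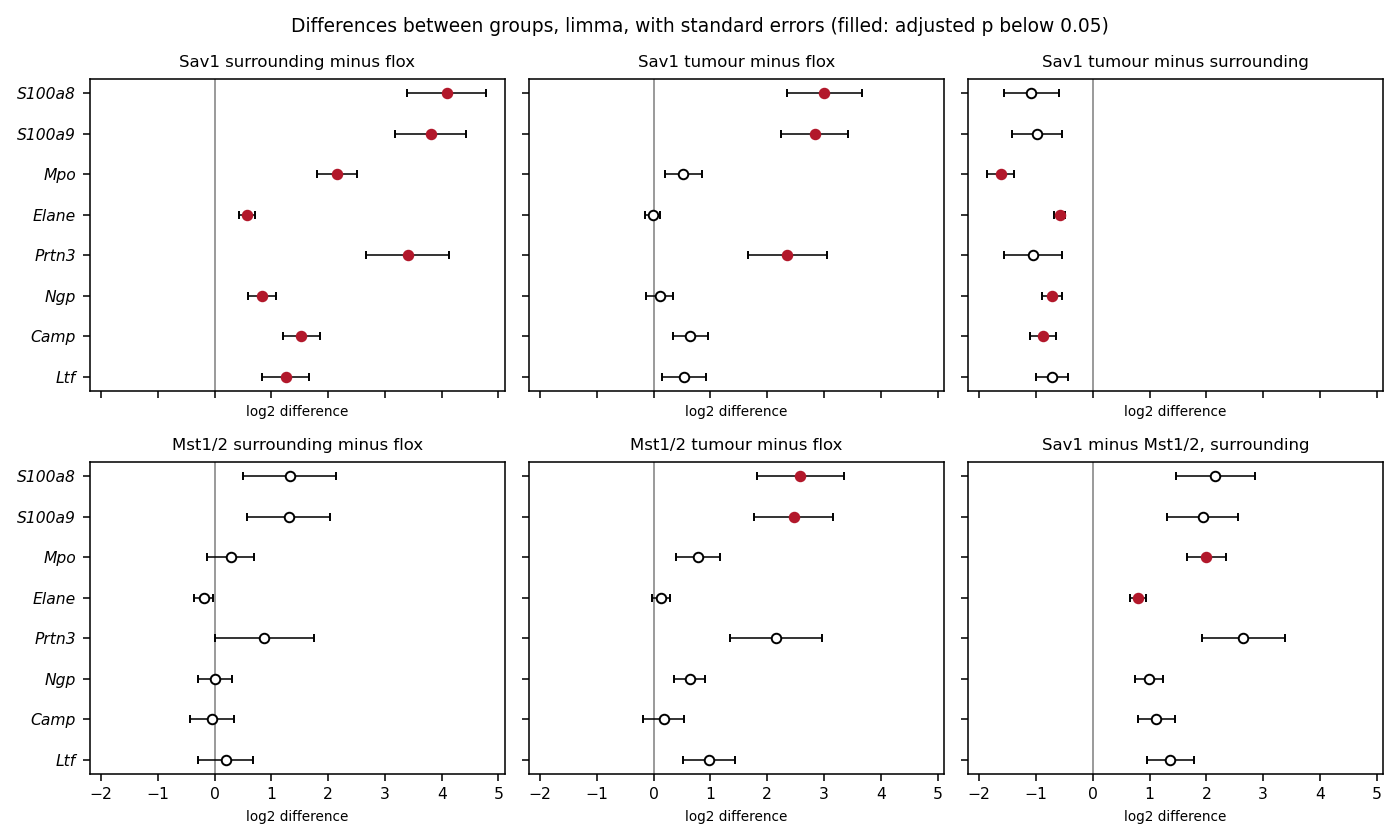
Difference in log2 normalized signal (horizontal axis) for each of the 8 genes in 6 comparisons, with SE bars; filled points had a limma adjusted p under 0.05. All 8 points are filled for Sav1 surrounding liver against flox liver, 3 for Sav1 tumour against flox liver, and 4, all to the left of 0, for Sav1 tumour against surrounding liver.

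Other genes of the same pathway were read from lists. Of 7 other primary granule genes tested, lysozyme 2 (Lyz2, also a macrophage gene) rose by 3.11 ± 0.65 (SE; limma adjusted p = 0.0039) and the elastase inhibitor Serpinb1a fell by 1.36 (adjusted p = 0.00037), where 5.49% of all genes tested were called lower. Cathepsin G (Ctsg), a protease of the same granules, differed by 0.44 (adjusted p = 0.073). Of 10 other secondary and tertiary granule genes, 4 rose, led by lipocalin 2 (Lcn2, 5.25 ± 0.68, SE; adjusted p = 2.4e-05), which hepatocytes also make. Of 14 neutrophil surface and oxidase genes, 3 rose: the NADPH oxidase subunits Cyba (2.48, adjusted p = 0.013) and Ncf4 (1.84, 0.013), and the neutrophil-secreted Retnlg (1.58, 0.026). Of 10 chemoattractant and growth factor genes, limma called 0 (3 at an unadjusted p under 0.05), and Cxcl1, a neutrophil-attracting chemokine, differed by 1.35 (adjusted p = 0.16). Of 8 calprotectin receptor and signalling genes it called 0 (5 unadjusted), and Cd14, a coreceptor of TLR4, differed by 2.07 (adjusted p = 0.073). Of 11 granule protease inhibitor genes, 3 rose, led by Serpinb6a (2.46, adjusted p = 0.00041).

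Markers of other cells moved in the same comparison. Of 15 monocyte and macrophage markers, 9 rose and 0 fell, led by Mpeg1 (2.73, limma adjusted p = 2.4e-05) and the scavenger receptor Cd163 (2.28, 0.0013). The mean level of that list was 8.22 to 8.87 in Sav1 flox liver and 9.66 to 11.52 in surrounding liver. Of 9 T, NK and B cell markers, 5 rose, and their mean level was 6.23 to 6.49 and 6.82 to 7.86 in the same groups. The part of these cells in the calprotectin values was not tested. Of 14 myeloid and erythroid precursor genes, 0 rose and 2 fell (Car1 and Alas2, both erythroid), with mean levels of 7.77 to 7.94 and 7.54 to 8.09. Of 6 eosinophil, basophil and mast cell markers limma called 0 (2 at an unadjusted p under 0.05). Of 5 squamous epithelial markers, which bear on S100a8 and S100a9 because keratinocytes make them, 0 rose and Krt14 fell by 0.43 (adjusted p = 0.029), and Krt5 was above background on 0 arrays. Of 10 hepatocyte markers limma called 0 (4 unadjusted). Among markers often used for neutrophils, Csf3r was above background on all 7 surrounding arrays (7.76 ± 0.61, SD, n = 7) and on 1 of 3 flox arrays. It was not among the 3 surface and oxidase genes that limma called. Cxcr2 was above background on 3 of 7 and 0 of 3, and Itgam and Mmp8 on 0 arrays of any group. Ly6g was not analysed here.

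Sav1 tumours were then compared with Sav1 flox liver. These groups differ in the knockout as well as in being tumour, so a difference between them is not specific to the tumour. Only 3 of the 8 genes rose, S100a8, S100a9 and Prtn3, where 17.3% of all genes tested were called higher. That background was higher than for surrounding liver, so the count of 3 stood less far above it. The median difference over the 8 genes was 0.59, against 0.05 over all genes.

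S100a8 ranged from 7.92 to 12.67 in the 11 tumours (median 10.24), a mean of 10.43 ± 1.28 (SD, n = 11). It was 8.04-fold higher than in flox liver (3.01 ± 0.66, SE; limma adjusted p = 0.00093), and only tumour 6, at 7.92, lay within the flox range. S100a9 ranged from 8.07 to 11.03 (median 9.24), with every tumour above every flox liver, and was 7.12-fold higher (2.83 ± 0.59, SE; limma adjusted p = 6e-04). Prtn3 ranged from 7.06 to 10.75 (median 8.03), above background in all 11 tumours, and was at least 3.85-fold higher (2.35 ± 0.69, SE; limma adjusted p = 0.01). Its call did not survive the removal of Sav1 flox replicate 2 (2.28, adjusted p = 0.05, just over the threshold before rounding) or the set block (2.16, adjusted p = 0.07).

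The other 5 genes did not pass. Mpo differed by 0.53 ± 0.33 (SE; limma adjusted p = 0.22) and was above background in 7 of 11 tumours. Camp differed by 0.65 ± 0.31 (adjusted p = 0.1), Ltf by 0.54 ± 0.39 (0.29) and Ngp by 0.11 ± 0.24 (0.75). Elane differed by -0.02 ± 0.13 (0.93), with tumour values of 6.13 to 6.68 across the flox range of 6.24 to 6.60. Within set A (3 tumours and 3 flox livers), S100a8 (3.23, adjusted p = 0.045) and Mpo (0.85, 0.012) were called, and S100a9 (2.50, 0.059) and Prtn3 (1.99, 0.055) were not. Of the other granule genes, Lyz2 rose by 3.35 in the primary list while Serpinb1a fell by 1.71 (16% of all genes tested were called lower), and 5 of 10 secondary and tertiary genes rose, led by Lcn2 (5.58) and the secreted protease inhibitor Slpi (4.18). Of 14 surface and oxidase genes 4 rose, with Cyba at 2.09 and Ncf4 at 1.41. Among calprotectin receptors, Cd36 (0.96) and Cd14 (2.57) rose and Bsg fell by 0.87, out of 8. The macrophage list moved in both directions here, with 6 of 15 higher and 4 lower. Of 9 T, NK and B cell markers 3 rose (Cd3d by 1.58, Cd3g by 1.62 and Cd3e by 1.21), and their mean level was 6.57 to 7.99. Of 10 hepatocyte markers 3 were lower (Asgr1 -1.44, Cps1 -2.66 and Apob -0.77), and their mean level was 12.22 to 13.12 in tumours and 12.91 to 13.20 in flox liver. Their part in the values of the 8 genes was not tested.

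Sav1 tumours were next compared directly with Sav1 surrounding liver. Mpo, Elane, Ngp and Camp were lower in tumours, where 5.84% of all genes tested were called lower, and the calprotectin genes, Prtn3 and Ltf did not pass the test. All 8 differences were below 0, with a median of -0.93 against 0.02 over all genes. The surrounding livers are the same arrays as in the comparison with flox liver, so these 2 sets of differences are not independent.

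Mpo ranged from 5.93 to 7.17 (median 6.44) in the 11 tumours and from 7.28 to 9.15 (median 8.00) in the 7 surrounding livers. The groups did not overlap, and Mpo, above background in 7 of the 11 tumours, was 3.08-fold lower there (-1.63 ± 0.24, SE; limma adjusted p = 4.9e-05). Elane ranged from 6.13 to 6.68 (median 6.36) in tumours and from 6.62 to 7.36 (median 6.94) in surrounding liver (-0.58 ± 0.10, SE; limma adjusted p = 0.00018). Tumour 3, at 6.68, was the only tumour to enter the surrounding range. Camp ranged from 6.24 to 7.84 (median 6.54) in tumours and from 6.86 to 8.74 (median 7.74) in surrounding liver (-0.88 ± 0.23, SE; limma adjusted p = 0.0095). Tumours 2, 7 and 9 reached the surrounding range for Camp, at 6.89, 7.84 and 7.19. Ngp was above background in 4 of 11 tumours and 6 of 7 surrounding livers, with medians of 6.29 and 7.05 (-0.72 ± 0.18, SE; limma adjusted p = 0.0063).

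The 4 genes that did not pass overlapped widely. S100a8 differed by -1.08 ± 0.49 (SE; limma adjusted p = 0.15), and tumour 2, at 12.67, held the highest S100a8 value of all 33 arrays. S100a9 differed by -0.98 ± 0.44 (adjusted p = 0.15), Prtn3 by -1.05 ± 0.51 (0.19) and Ltf by -0.72 ± 0.29 (0.1). The sizes of the differences for these genes were not smaller than that of Elane, but their values varied more from sample to sample.

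The fall in granule transcripts also moved with the array sets. Within set A (3 tumours and 3 surrounding livers), limma called 0 of the 8 genes (3 at an unadjusted p under 0.05). Mpo differed by -0.60 (limma adjusted p = 0.11), Elane by -0.33 (0.48), Ngp by -0.23 (0.84) and Camp by -0.31 (0.68). Within set C (2 tumours and 4 surrounding livers), Mpo (-2.52, adjusted p = 0.015) and Camp (-1.67, 0.028) were called, and Elane (-0.72) and Ngp (-1.10) both had an adjusted p of 0.15. With set as a block over all samples, Mpo, Elane and Camp were called and Ngp was not (-0.64, adjusted p = 0.065). Set B held 6 of the 11 tumours and no Sav1 surrounding liver.

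Other genes in this comparison included Ctsg (-0.53 ± 0.11, SE; limma adjusted p = 0.0018) and the myeloid hexokinase Hk3 (-0.89 ± 0.23, 0.0092), the 2 of 7 other primary granule genes that fell. Ctsg was above background in 0 of 11 tumours and 3 of 7 surrounding livers. None of the 10 secondary and tertiary genes fell, and 2 rose, where 7.03% of all genes tested were called higher (Slpi by 1.43, adjusted p = 0.042, and haptoglobin, Hp, by 0.23, 0.042). Of 14 surface and oxidase genes limma called 0 (2 at an unadjusted p under 0.05), and Retnlg differed by -0.83 (adjusted p = 0.084). Of 10 chemoattractant genes 1 fell, the platelet chemokine Ppbp (-0.86, adjusted p = 0.038). Of the 15 macrophage markers 5 fell, led by Cd163 (-4.39, adjusted p = 5.6e-11) and including the Kupffer cell markers Clec4f (-4.14), Timd4 (-2.76) and Vsig4 (-4.26). The mean macrophage level was 8.36 to 10.11 in tumours against 9.66 to 11.52 in surrounding liver. Of 9 T, NK and B cell markers limma called 0 (0 at an unadjusted p under 0.05). Of 10 hepatocyte markers 3 were lower in tumours (Asgr1 -1.12, Cps1 -2.08 and Tat -0.56), with mean levels of 12.22 to 13.12 in tumours and 12.78 to 13.18 in surrounding liver. The part of macrophages or hepatocytes in the granule values was not tested.

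A second Mpo probe was above background on 13 arrays and gave the same pattern at a smaller size. In a fit of 23276 probes, it rose by 1.24 ± 0.25 (SE; limma adjusted p = 0.0029) in Sav1 surrounding liver over flox liver and fell by 1.19 (adjusted p = 4.6e-05) in Sav1 tumours relative to surrounding liver. Its surrounding-liver values were 7.05, 7.01 and 7.20 in set A and 7.66, 8.18, 7.27 and 8.14 in set C. Another probe, above background on 6 arrays, differed by 0.03 ± 0.09 (adjusted p = 0.87) and -0.13 (0.19) in the same comparisons. The fourth was above background on 2 arrays and was not tested, nor was the second Ltf probe, which was above background on 1.

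**Figure D3:**
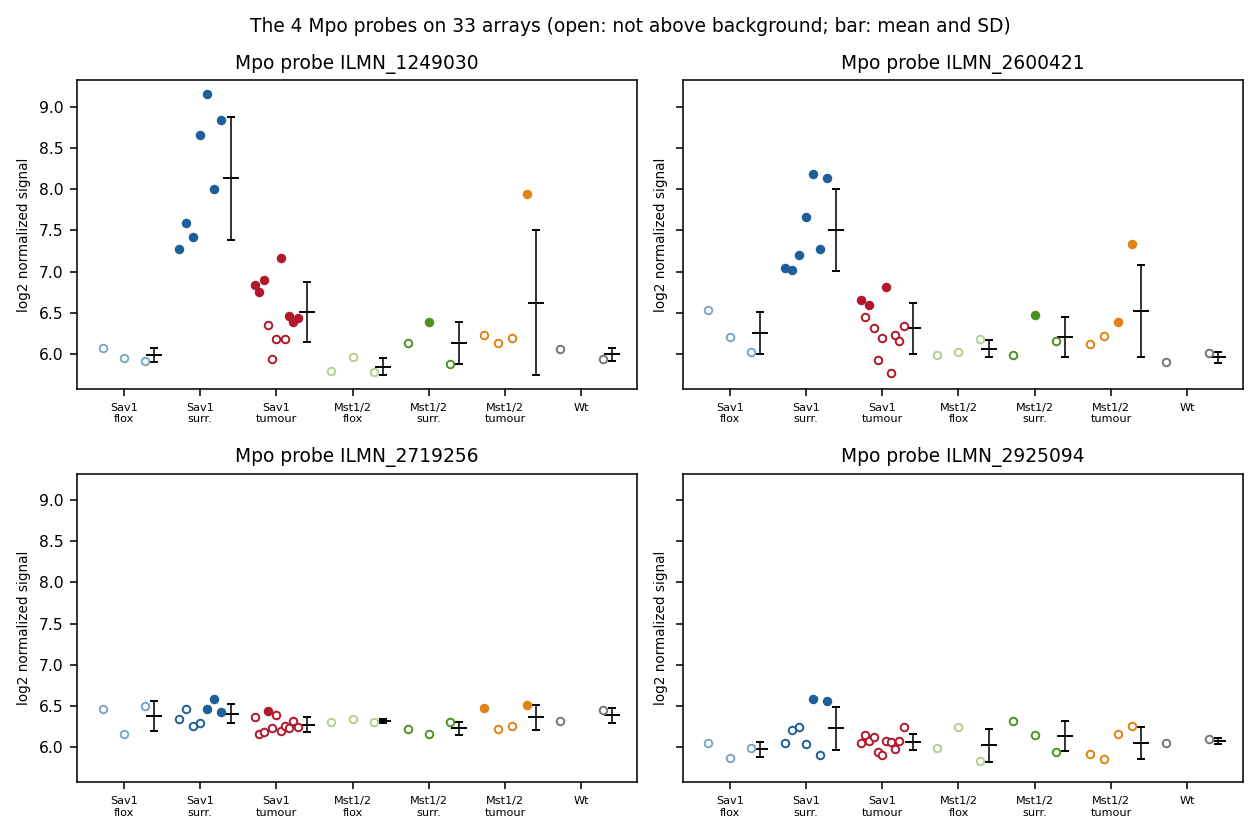
Log2 normalized signal (vertical axis) of the 4 Mpo probes on each array by group, with 1 point per array; open points were not above background. The probe above background on 16 arrays and the one above background on 13 were both highest in Sav1 surrounding liver, and the other 2 stayed close to background in every group.

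In the Mst1/2 line, tumours were compared with Mst1/2 flox liver. The calprotectin genes rose, and 0 of the 6 granule genes passed the test (limma; 5 of all 8 genes had an unadjusted p under 0.05), where 11.3% of all genes tested were called higher. The median difference over the 8 genes was 0.88, against 0.00 over all genes. S100a8 read 9.44, 10.40, 10.16 and 12.46 in the 4 tumours, all above the flox values of 7.75 to 8.52, and was 5.99-fold higher (2.58 ± 0.77, SE; limma adjusted p = 0.017). S100a9 read 8.80, 9.35, 9.34 and 11.46, all above the flox values of 6.86 to 7.58, and was 5.52-fold higher (2.47 ± 0.69, SE; limma adjusted p = 0.012). Both calls rested on few samples. Without tumour 4, the differences were 1.97 (adjusted p = 0.074) and 1.89 (0.054). Without flox replicate 4, the adjusted p was 0.066 for S100a8 and 0.058 for S100a9, and without flox replicate 6 it was 0.062 for S100a8.

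Prtn3 read 8.14, 6.83, 10.21 and 8.17 in the same tumours, each above background, and was not above background in any Mst1/2 flox liver. It was at least 3.76-fold higher, with a difference of 2.15 ± 0.81 (SE; limma adjusted p = 0.059). Without tumour 2 it was called (2.65, adjusted p = 0.033). Mpo was above background in tumour 4 alone (7.94), and its difference was 0.78 ± 0.39 (adjusted p = 0.16). Ltf differed by 0.98 ± 0.45 (0.13), Ngp by 0.63 ± 0.28 (0.11), Camp by 0.18 ± 0.36 (0.78) and Elane by 0.12 ± 0.16 (0.62). Tumour 4 had the highest value of the 4 for every gene except Prtn3. Of related genes, Lyz2 (2.13, adjusted p = 0.037), Slpi (4.89), Lcn2 (2.96), Ncf4 (1.48, 0.041), Cxcl1 (1.96, 0.048), Cd14 (3.27, 0.0063) and Tlr2 (1.92, 0.04) rose, and Serpinb1a fell by 0.91 (0.009), where 9.02% of all genes tested were called lower. The macrophage list had 4 of 15 genes higher and 2 lower. Of 10 hepatocyte markers 2 were lower (Tat -1.13 and Asgr1 -1.20), and of 9 T, NK and B cell markers limma called 0 (2 at an unadjusted p under 0.05). Their part was not tested.

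For the liver surrounding Mst1/2 -/- tumours, 0 of the 8 genes differed from Mst1/2 flox liver (limma, 0 at an unadjusted p under 0.05), where 4.02% of all genes tested were called. S100a8 nevertheless read 9.59, 9.73 and 8.73, each above the highest flox value of 8.52, with a difference of 1.32 ± 0.82 (SE; limma adjusted p = 0.44; 95% interval -0.36 to 3.00). S100a9 read 8.54, 8.89 and 8.30 against at most 7.58 (1.30 ± 0.74, SE; adjusted p = 0.38). Prtn3 read 6.68, 7.55 and 6.97, above background in all 3 surrounding livers and in 0 of 3 flox livers (0.88 ± 0.87, SE; limma adjusted p = 0.67; 95% interval -0.90 to 2.65). Group means alone gave a minimum of 1.55-fold, but the interval also holds a decrease. When only these 2 groups were fitted, so that the spread of the other groups did not enter, the same 3 genes were called, with adjusted p of 0.0054, 0.0011 and 0.0082. Mst1/2 tumours against Mst1/2 surrounding liver gave 0 calls among the 8 (2 at an unadjusted p under 0.05), where 0.0785% of all genes tested were called. S100a8 differed by 1.26 (adjusted p = 0.77), S100a9 by 1.16 (0.75) and Prtn3 by 1.27 (0.79).

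The surrounding livers of both lines were compared directly. Mpo and Elane were higher in the Sav1 line, where 0.478% of all genes tested were called higher, and all 8 genes had an unadjusted p under 0.05. The median difference was 1.65, against -0.02 over all genes. Mpo was above background on 7 of 7 Sav1 arrays and on 1 of 3 Mst1/2 arrays (6.13, 6.39 and 5.87), and was higher in the Sav1 line (2.00 ± 0.35, SE; limma adjusted p = 0.003). Elane read 6.07, 6.12 and 6.35 in Mst1/2 surrounding liver, none above background, and was at least 1.49-fold higher in the Sav1 line (0.79 ± 0.14, SE; limma adjusted p = 0.0031). Ngp was just over the threshold (0.99 ± 0.25, adjusted p = 0.05 after rounding). The remaining differences were 2.65 for Prtn3 (adjusted p = 0.081), 1.12 for Camp (0.095), 1.37 for Ltf (0.11), 2.16 for S100a8 (0.14) and 1.93 for S100a9 (0.14).

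Both calls depended on single samples. Elane was lost without Mst1/2 surrounding liver 1 or 2 (adjusted p = 0.051 in each), and Mpo without number 3 (0.053). Samples with the same number in these groups deviated together, although the groups differ in genotype, so a shared number cannot mark a shared animal. With that number as a block, 6 genes were called in 3 against 3 samples. These were S100a8 (1.81, adjusted p = 0.015), S100a9 (1.26, 0.014), Mpo (1.30, 0.013), Elane (0.72, 0.035), Prtn3 (2.65, 0.039) and Ltf (0.84, 0.049). The same 6 samples without the block gave 4 calls. All Mst1/2 samples were in set B and all Sav1 surrounding livers in sets A and C, so set and line cannot be told apart by a comparison within a set. A fit with set as a random block, chosen after the data were seen, called Mpo (1.93, limma adjusted p = 0.016) and Elane (0.73, 0.027). Only Sav1 tumours link set B with the other sets. That fit therefore assumes that set acts alike in tumour and surrounding liver, and it does not separate set from line without that assumption. The macrophage markers Cd163 (2.24, adjusted p = 0.0057) and Timd4 (1.99, 0.0071) were also higher in the Sav1 line, as was Ctsg (0.65, 0.041). The mean macrophage level was 9.23 to 9.56 in Mst1/2 surrounding liver and 9.66 to 11.52 in Sav1 surrounding liver, and its part in the granule difference was not tested.

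Between the tumours of the 2 lines, 0 of the 8 genes were called (limma, 0 at an unadjusted p under 0.05), where 3.8% of all genes tested were. S100a8 differed by -0.19 ± 0.59 (SE; limma adjusted p = 0.91), with a 95% interval of -1.39 to 1.02, an interval that allows a difference of that size in either direction. S100a9 differed by -0.21 ± 0.53 (adjusted p = 0.89; interval -1.29 to 0.88) and Prtn3 by 0.33 ± 0.62 (0.83; interval -0.94 to 1.60). Within set B, which held all 4 Mst1/2 tumours and 6 of the Sav1 tumours, the values were -0.32 (adjusted p = 0.82), -0.02 (0.99) and 0.39 (0.78).

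Whether the effects themselves differed between lines was tested with interaction terms. For tumour against flox liver, 0 of the 8 were called (0 at an unadjusted p under 0.05), where 1.11% of all genes tested were. For surrounding liver against flox liver, 0 were called and 7 had an unadjusted p under 0.05, where 0.592% of all genes were called. The terms were largest in size for S100a8 (2.77 ± 1.08, SE; limma adjusted p = 0.28) and best determined for Mpo (1.86 ± 0.54, 0.12) and Elane (0.76 ± 0.22, 0.12). For tumour against surrounding liver, Elane passed (-0.90 ± 0.18, SE; limma adjusted p = 0.043), where 0.0642% of all genes tested were called lower, and all 8 had an unadjusted p under 0.05. Mpo was close (-2.12 ± 0.46, adjusted p = 0.052). Elane fell from surrounding liver to tumour in the Sav1 line and had means of 6.18 and 6.50 in surrounding liver and tumour of the Mst1/2 line. That call was lost without Mst1/2 surrounding liver 1 (adjusted p = 0.2), 2 (0.17) or 3 (0.06), without Mst1/2 tumour 4 (0.14), and with the set block (0.12).

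Ordered by group mean, S100a8 was highest in Sav1 surrounding liver (11.51), then Mst1/2 tumour (10.61), Sav1 tumour (10.43), Mst1/2 surrounding liver (9.35), Mst1/2 flox liver (8.03), wild-type liver (7.51) and Sav1 flox liver (7.42). S100a9 had the same order. Prtn3 kept Sav1 surrounding liver at the top (9.72), followed by Sav1 tumour (8.67), Mst1/2 tumour (8.34) and Mst1/2 surrounding liver (7.06), with the 3 normal groups at 6.16 to 6.32. For these 3 genes the ranges of the first 3 groups overlapped. Mpo, by contrast, had 1 group mean (Sav1 surrounding liver, 8.13 ± 0.75, SD, n = 7) above the other 6, which lay between 5.85 and 6.62.

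Within the 11 Sav1 tumours, the level of 1 gene was compared with that of another over 28 pairs of genes. S100a8 and S100a9 followed each other (Pearson r = 0.915, adjusted permutation p = 0.00084; Spearman rho = 0.936, adjusted permutation p = 0.0036). The r was 0.953 without the 2 tumours farthest from the median of S100a8, and 0.945 within the 6 tumours of set B. Camp and Ltf had r = 0.881 (adjusted permutation p = 0.014) but rho = 0.536 (adjusted permutation p = 0.29). Without the 2 tumours farthest from the median of Camp, their r was 0.444, so the relation rested on those samples. Tumours 7 and 9 were high for both, with Camp at 7.84 and 7.19 and Ltf at 8.41 and 8.09, and r within set B was 0.919. Of the 28 pairs, 2 passed by Pearson and 1 by Spearman after adjustment, and 8 by Pearson before it.

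A correlation of Prtn3 with calprotectin was not found in these tumours (r with S100a8 = -0.327, adjusted permutation p = 0.5). Tumour 6 had the lowest S100a8 value of the 11 (7.92) and the highest Prtn3 value (10.75). Tumour 2 had the highest S100a8 (12.67) with Prtn3 at 7.75. Within set B the r of S100a8 with Prtn3 was -0.694 over 6 tumours. Without the 2 tumours farthest from the median of S100a8, it was 0.192, so the sign rested on those samples. Elane, the neighbour of Prtn3 on the chromosome, read 6.27 in tumour 6 and was not above background there. Over the 11 tumours, r of Elane with Prtn3 was -0.028 (adjusted permutation p = 0.93; rho = 0.073, adjusted permutation p = 0.84), and 6 of the tumours had no Elane signal above background.

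**Figure D4:**
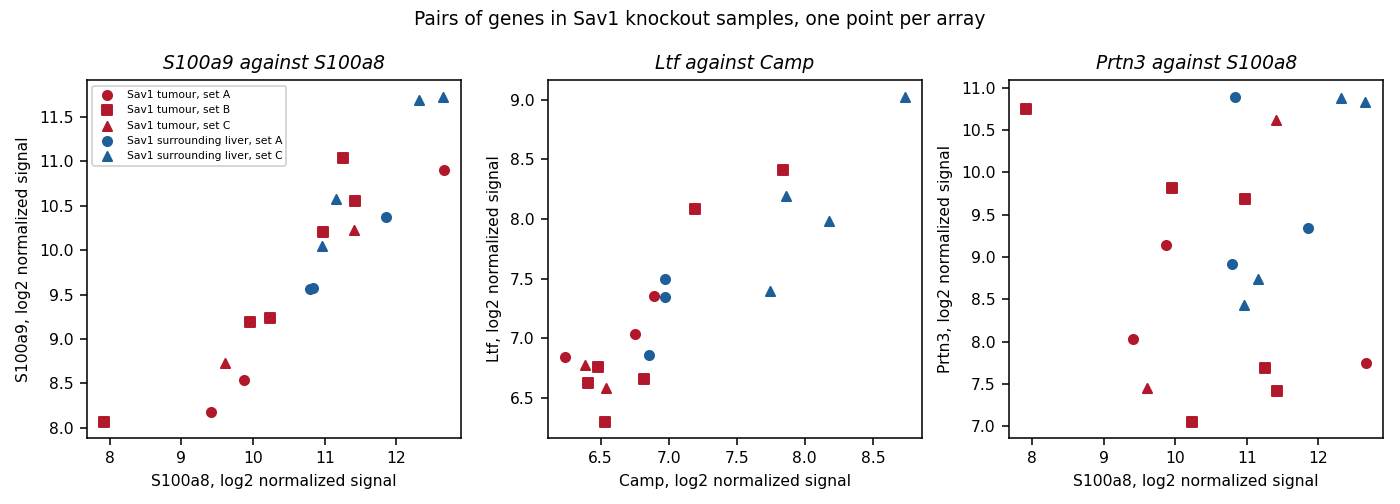
Log2 normalized signals of 2 genes plotted against each other, 1 point per Sav1 tumour or Sav1 surrounding liver, marked by array set: S100a9 against S100a8, Ltf against Camp, and Prtn3 against S100a8. The first pair lies along a line (r = 0.915 in tumours), whereas in the third the tumour with the lowest S100a8, 7.92, has the highest Prtn3, 10.75. In tumours the r of the third pair was -0.327, and 0.192 without the 2 farthest from the median of S100a8.

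Over all 33 arrays, the genes most similar to each of the 8 were listed by Pearson correlation, as a description, since the arrays share groups and sets. S100a8 and S100a9 were each other's closest (r = 0.977), followed by the oxidase subunit Ncf4 (0.864) for S100a8 and by Retnlg (0.853) for S100a9. Mpo was closest to Camp (0.902), Ifitm6 (0.882) and Ngp (0.858), and Elane to Mpo (0.808). Camp and Ltf were at 0.874. Ctsg was among the 5 closest genes of Mpo (0.827), Elane (0.761) and Ngp (0.782). For Prtn3 the closest genes were Apol11b (0.755), Pf4 (0.750) and Ubl3 (0.746), with none of the other 7 among its first 5. After subtraction of group means, S100a8 and S100a9 were at 0.923, Camp and Ltf at 0.863, Mpo and Camp at 0.845, and S100a8 and Prtn3 at -0.102. Elane then had none of the other 7 among its first 5 either, led by Numa1 (0.666) and Foxe1 (0.664).

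The genes around Prtn3 were also read. Ptbp1, a splicing regulator, rose in Sav1 tumours over flox liver (0.47 ± 0.16, SE; limma adjusted p = 0.023) and over surrounding liver (0.46 ± 0.12, 0.0074), and differed by 0.00 (adjusted p = 1) in surrounding liver over flox liver. Plppr3 (0.17, adjusted p = 0.5), Med16 (-0.39, 0.47) and R3hdm4 (-0.01, 0.98) were not called in surrounding liver over flox liver. None of these had a difference near the 3.40 of Prtn3 in that comparison. Cfd, which also lies near Prtn3, had no probe annotated to it alone and was not measured.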

How the data were processed

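The arrays were Illumina bead arrays read with BeadStudio, per the submitters' processing notes (its version is unstated). The deposited signal table gave 1 intensity per probe and sample on a linear scale with no background correction that could be seen, and no detection p-values. The authors' deposited series values were log2 signals, which differed by at most 0.00500 from log2 of the quantile-normalized intensity, and they served as an alternative. Precision is limited by the number of arrays.

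Intensities were corrected by normexp with an offset of 50, quantile-normalized and log2-transformed. The plan named a correction that needs detection p-values, so background was instead set per array at the 99th percentile of the values mirrored about the mode of the dimmest probes. Of all probes, 34885 named 1 gene in the platform annotation, 18 several and 10378 none. A probe was kept if it named 1 gene and passed background on 3 or more arrays (23276 probes), and the probe with the highest mean represented its gene (14018 genes). One fit over 33 arrays (limma 3.58.1 in R 4.3.3) gave every comparison, with Benjamini-Hochberg adjustment over all genes and a threshold of 0.05. The fit was tested on simulated data. Permutation tests drew 100000 permutations (scipy 1.17.1, Python 3.11.15).

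The 8 genes and 13 gene lists were chosen with earlier results of these data known. All 8 genes are named in the text where a comparison called any of them, and S100a8, S100a9 and Prtn3 elsewhere; from each list up to 4 genes with the lowest adjusted p are named. Neutrophil markers and the neighbours of Prtn3 are named as such, and any other named gene was chosen after its values were seen. Samples of equal number deviated together with correlations over 0.1 in every pair only for the 2 surrounding-liver groups (0.183 to 0.338, 3 pairs). No 2 arrays held the same values (highest correlation 0.993). Alternatives were the authors' log2 values, median scaling, an offset of 16, no filter on dim probes, every kept probe, other control groups, only the compared groups, the array sets as a block or taken singly, the replicate number as a block, and each sample of the groups of 2 to 4 left out in turn; single Sav1 tumours and Sav1 surrounding livers were not left out.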

Additional observations from a re-analysis of the deposited data

Results flagged for a closer look

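Of 16 combinations of a gene with a group of 4 to 10 samples, 2 held a sample far from the others, and both were Mst1/2 tumour 4. Mpo was 7.94 there and 6.24 in the nearest of the other 3 tumours. Camp was 7.55 there and 6.56 in the nearest. Chance flags about 1 in 20 groups, and the genes share the same arrays.

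Elane differed between lines in its change from surrounding liver to tumour, with an interaction of -0.90 ± 0.18 on the log2 scale (SE; limma adjusted p = 0.043). Elane had a mean of 6.97 in Sav1 surrounding liver and 6.39 in Sav1 tumour, against 6.18 and 6.50 in the Mst1/2 line. It was above background on 0 of 3 Mst1/2 surrounding-liver arrays.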

How the results depend on the processing

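Of the recomputed counts of called genes among the 8, 146 stayed within 1.5 times the reported count and 32 did not. Of the recomputed single differences 827 kept direction and side of the threshold, 73 fell below it, 24 passed it and 11 changed sign. Fitting only the compared groups gave 5 calls for Sav1 surrounding against flox liver, 3 for Mst1/2 surrounding against flox liver, 4 between the surrounding livers, and 1 (S100a8, adjusted p = 0.038) and 0 for the interactions of surrounding against flox liver and of tumour against surrounding liver. Within set A there was 1 call for Sav1 surrounding against flox liver and 0 for tumour against surrounding liver, and within set C there were 2 for the latter. The interaction of tumour against surrounding liver gave 0 calls with median scaling, with every kept probe and with the set block. With the replicate number as a block, there were 0 calls for Sav1 tumour against flox liver, 0 for Sav1 surrounding against flox liver (4 in the same samples without the block), 2 for Sav1 tumour against surrounding liver (2 without it) and 6 between the surrounding livers (4 without it). Only in the last of these did every pair of samples of equal number correlate over 0.1. Those samples come from different lines, so a shared number cannot mark a shared animal. For Sav1 tumour with surrounding liver 5 of 7 pairs were over 0.1. The labels do not say whether these are matched, and the main fit used no pairing. The correlations were -0.0827 to -0.0188 for Sav1 tumour with flox liver, -0.0448 to 0.0153 for surrounding with flox liver, and 0.0694 to 0.691 over 7 pairs of tumour with surrounding liver, where 4 of 7 samples correlated best with their own number. Leaving out each sample of the groups of 2 to 4 in turn (no single Sav1 tumour or Sav1 surrounding liver, so none for the comparison of those 2 groups) gave 2 to 3 calls for Sav1 tumour against flox liver, 5 to 6 for Sav1 surrounding against flox liver, 0 to 3 for Mst1/2 tumour against flox liver, 1 to 1 between surrounding livers and 0 to 2 for the interaction of tumour against surrounding liver. Changes of sign were all in small differences. Elane in Sav1 tumour against flox liver was 0.070 with the set block, 0.16 within set A and with or without the replicate block in the same samples, and ranged from -0.10 to 0.076 as samples were left out, highest without flox replicate 1. Camp in Mst1/2 tumour against flox liver ranged from -0.10 (without tumour 4) to 0.30. Between tumours of the 2 lines, S100a8 was 0.22 with or without the replicate block in the same samples and ranged from -0.58 to 0.43, S100a9 ranged from -0.52 to 0.37 (both highest without Mst1/2 tumour 4), and Prtn3 from -0.17 (without Mst1/2 tumour 2) to 0.96. The cause was not tested for these. The set comparisons, the set block and the fits without a block were chosen after seeing the data. In the alternative fits the share of all genes called was not taken, so their counts have no background beside them. Signal over background limits the 6 granule genes, whose Sav1 flox values are only upper bounds.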
